A study of Mus musculus with 2 samples.

Results

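The Il1b-positive mature-type neutrophils of the mouse olfactory epithelium were 95 of 8298 kept cells. They were selected on measured UMIs (unique molecular identifiers, 1 per captured RNA molecule): at least 3 of Il1b, at least 1 of Csf3r, at most 4 of Ngp, Camp and Ltf together and at most 1 of C1qa, C1qb and C1qc together. A barcode was kept from 1000 UMIs and 500 genes upward if mitochondrial genes gave no more than 10% of its UMIs. The tissue came from a C57BL/6 mouse, given as male, whose left naris was occluded at postnatal day 14. Tissue of both sides, the closed left and the open right, was collected at postnatal day 28. Each side of this single mouse gave 1 library, and the labels name no unoperated animal, so every cell described here comes from an occluded mouse. Cells had been frozen after dissociation and passed through dead cell removal before capture with a 3′ kit. Barcodes carry the suffix 1 or 2, and which suffix belongs to which side is not stated in the labels or files, so the sides are not compared and the libraries are called library 1 and library 2. With 1 library for each suffix there is no test, and every interval is an exact 95% interval that covers counting error only.

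Neutrophils are short-lived granulocytes that leave the bone marrow once their granules are filled. Ngp, Camp and Ltf encode proteins of the specific granule and are transcribed at the marrow stage, and transcription of granule genes is shut off as the cell matures. Mature neutrophils respond to granulocyte colony-stimulating factor through Csf3r and to chemokines through Cxcr2, and in inflamed or peripheral tissue they can make interleukin-1 beta, the product of Il1b.

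In library 1, 28 of 3032 kept cells fulfilled the rule (0.923%, interval 0.615 to 1.33), and in library 2, 67 of 5266 (1.27%, interval 0.987 to 1.61). The intervals of both libraries overlap. Among kept cells with a UMI of Ptprc, the gene of the leukocyte antigen CD45, the shares were 7.81% in library 1 and 7.55% in library 2. The 95 cells held 272641 UMIs with a median of 1761 UMIs and 795 genes per cell, against a median of 5289.5 UMIs over all kept cells. The libraries shared 12 barcode sequences, none of them among the 95.

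The label held for most but not all of the 95 barcodes. Of these, 12 carried between 40 and 665 UMIs of B cell, T or NK cell, olfactory neuron, sustentacular or basal cell markers, while none of the other 83 carried more than 4. The 12 mixed barcodes had a median of 7862.5 UMIs, 11 of them were in library 2, and they held 38.7% of all UMIs of the 95. A further 9 barcodes, 8 of them in library 2, had at least 3 UMIs of 6 monocyte genes (Csf1r, Ccr2, F13a1, Fn1, Ms4a6c and Ly6c2) and more of these than of 6 neutrophil genes (Cxcr2, Mmp9, Retnlg, G0s2, Hdc and Trem1). One of these 9 also carried 274 UMIs of dendritic cell markers. The 1 of library 1 went against the name, with 4 UMIs of the monocyte genes against 2 of the neutrophil genes but 163 of S100a8, 137 of S100a9, 37 of Il1b and 4 of Siglecf and none of Csf1r. Both groups were set apart after their values had been seen, and the remaining 74 are called neutrophil-type cells. They are a remainder, and 72 of the 74 had a UMI of the 6 neutrophil genes. There were 26 neutrophil-type cells in library 1 (0.858% of kept cells, interval 0.561 to 1.25) and 48 in library 2 (0.912%, interval 0.673 to 1.21), with 128261 UMIs in all.

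**Figure D1:**
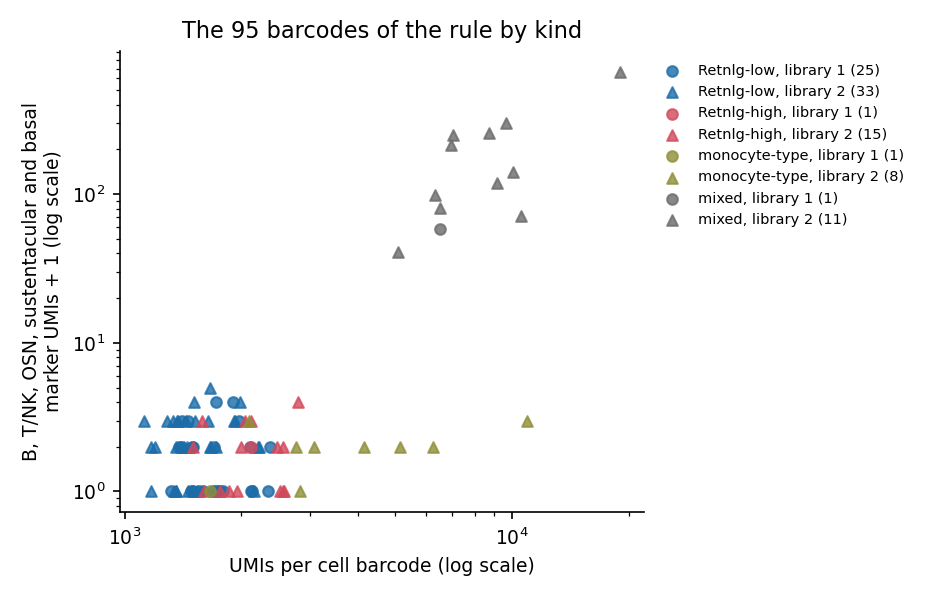
Each point is 1 of the 95 barcodes, with its UMIs on the x axis and its UMIs of B, T or NK, neuron, sustentacular and basal markers plus 1 on the y axis, both on log scales; colour gives the kind and shape the library. The 12 mixed barcodes stand apart with 40 or more such UMIs and 5072 or more UMIs in all.

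Of the 12 neutrophil markers, Il1b and Csf3r belong to the rule and 6 to the neutrophil genes used to set barcodes apart, so their presence is no check of the label. The other 4, S100a8, S100a9, Clec4d and Ly6g, had 12489, 11404, 32 and 13 UMIs in the 74 neutrophil-type cells. S100a8, a subunit of the calcium-binding protein calprotectin, had at least 1 UMI in 68 of 74 cells, Clec4d in 22 and Ly6g in 7. Cxcr2 had a UMI in 38 of 74 (51.4%), and in 33.8% (interval 23.2 to 45.7) after each cell was thinned to 1000 UMIs. In Cyp2g1-high cells, which are sustentacular cells of the epithelium and should lack Cxcr2, the shares were 2.62% unthinned and 0.212% thinned, at a median of 7084 UMIs against 1660 in the neutrophil-type cells. S100a8 RNA was more widespread: 13.3% of Cyp2g1-high cells carried a UMI of it, or 2.75% after thinning. Defining markers of other granulocytes were absent, with 7 of 7 eosinophil markers and 8 of 8 mast cell or basophil markers at 0. Of the monocyte markers 7 of 10 were present at a summed 1021 CPM (UMIs of the gene per 1000000 UMIs of the summed cells), and of the macrophage markers 5 of 10 at 1629 CPM, most of it Apoe at 1450 CPM. Ccr2, Ms4a6c and H2-Aa were at 0 UMIs in all 74 cells, where 3 UMIs would be 23.4 CPM. Ccr2 and Ms4a6c are among the genes that set the monocyte-type barcodes apart, so their 0 is no check, while H2-Aa was not used. Basal cell markers were also at 0, 6 of 6, but they are among the markers that set the mixed barcodes apart, so this is no check either. The part of other cells' RNA in the results below was not tested.

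Of the 7048 Il1b UMIs in all kept cells, the 74 neutrophil-type cells held 1914 (27.2%), which is 14923 CPM. Another 2508 (35.6%) lay in 108 cells that met the rest of the rule but had no Csf3r UMI, and 1900 (27.0%) in 201 cells with 2 or more UMIs of the C1q genes, which mark macrophages. Cells with 5 or more UMIs of Ngp, Camp and Ltf held 330, and the 7351 cells outside all of these groups held 106, or 2.08 CPM. The level in the neutrophil-type cells is set in part by the 3 Il1b UMIs that the rule asks for and is a description. Among cells that failed a single bound of the rule, that on Csf3r, a gene of low counts, left out the most cells with Il1b. Exactly 1 Csf3r UMI was found in 51 of the 74 neutrophil-type cells and 66 of the 95 members. Of the 108 cells with none, 44 had at least 3 UMIs of the neutrophil genes and more of these than of the monocyte genes. These 44 also had fewer than 10 UMIs of the markers that define mixed barcodes. Another 44 had at least 3 UMIs of the monocyte genes and more of these than of the neutrophil genes. Mixed barcodes, 10 of the 108, were not left out of that last count. At the Il1b bound, 7 members had 3 to 5 UMIs and 8 cells just outside had 1 or 2. At the granule bound, 19 members had 1 to 4 UMIs, and 18 cells outside had 5 or more, of which 16 had at least 20 Retnlg UMIs. At the C1q bound, 1 member had 1 UMI and 16 cells outside had 2 or more.

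The 74 neutrophil-type cells fell into 2 kinds by Retnlg, which encodes a resistin-like protein of late neutrophil maturation. Retnlg was at 0 UMIs in 47 cells, between 1 and 15 in 11 cells and between 22 and 91 in 16 cells. A bound of 20 UMIs, chosen after these values had been seen, separates 58 Retnlg-low from 16 Retnlg-high cells. The 2 cells nearest to that bound had 15 and 22 UMIs. Both are ranges of 1 gene's count and not named cell types. Since the bound was set on these cells, differences between the kinds are a description.

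**Figure D2:**
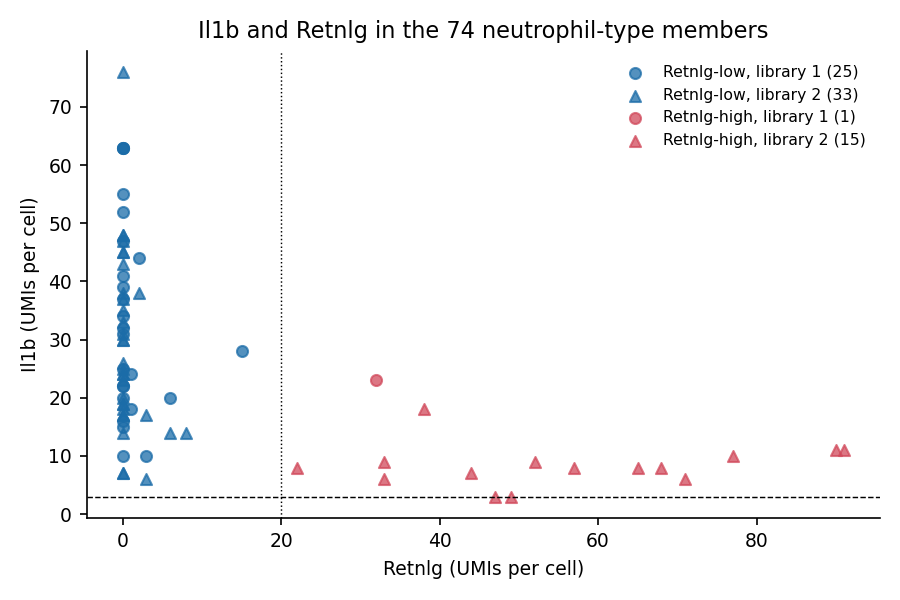
Each point is 1 of the 74 neutrophil-type cells, with its Retnlg UMIs on the x axis and its Il1b UMIs on the y axis; the dotted line marks 20 Retnlg UMIs and the dashed line the 3 Il1b UMIs of the selection rule. The 58 Retnlg-low cells reach 76 Il1b UMIs, and the 16 Retnlg-high cells lie between 3 and 23.

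Il1b had 6 to 76 UMIs per cell in Retnlg-low cells, with a median of 27, and 3 to 23 in Retnlg-high cells, with a median of 8. The rule cut both ranges at 3 Il1b UMIs. Outside it, 36 cells with 0 to 2 Il1b UMIs met the rest of the rule. Of these, 8 had at least 20 Retnlg UMIs, mixed barcodes not left out. In Retnlg-low cells the Il1b median was 31 in library 1 and 25 in library 2. S100a8 went the other way, with a median of 70.5 UMIs in Retnlg-low cells, where 6 of 58 cells had none, and a median of 402.5 in Retnlg-high cells, where the lowest cell had 182. Siglecf encodes a sialic acid-binding lectin that is best known from eosinophils and has been described on neutrophils resident in tissues. It had a UMI in 30 of 58 Retnlg-low cells, 16 of 25 in library 1 and 14 of 33 in library 2, and in 0 of 16 Retnlg-high cells, which allows up to 18.8% of cells with a UMI (3 of 16). Mmp8, the neutrophil collagenase, had a UMI in 0 of 58 Retnlg-low cells, which allows up to 5.17% of cells with a UMI (3 of 58), and in 12 of 16 Retnlg-high cells. Ly6g, a surface marker of mouse neutrophils, was seen in 1 of 58 against 6 of 16 cells. Ccl3, a chemokine for monocytes and lymphocytes, was seen in 25 of 58 against 0 of 16. Cxcl2, a ligand of Cxcr2, was seen in both kinds, in 39 of 58 and in 16 of 16. Of the 2362 Cyp2g1-high cells, taken as background, 0.635% had a UMI of Cxcl2, 0.635% of Ccl3, 0.296% of Ly6g, 0.466% of Mmp8 and 0 of Siglecf. Thinned to 1000 UMIs, a UMI was found in 60.3% of Retnlg-low and 100% of Retnlg-high cells for Cxcl2, in 41.4% and 0% for Ccl3, in 39.7% and 0% for Siglecf, in 0% and 31.3% for Ly6g and in 0% and 62.5% for Mmp8. Thinned Cyp2g1-high cells had 0.339% for Cxcl2, 0.0847% for Ccl3, 0.0423% for Ly6g and 0.296% for Mmp8. Retnlg-high cells had a median of 624.5 genes and 0.855% mitochondrial UMIs, and Retnlg-low cells a median of 780.5 genes and 2.35%.

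Retnlg-high cells were 1 of 26 neutrophil-type cells in library 1 (3.85%, interval 0.0973 to 19.6) and 15 of 48 in library 2 (31.3%, interval 18.7 to 46.3). These intervals overlap only between 18.7 and 19.6, and an overlap is no test that shares are equal. The single Retnlg-high cell of library 1 had 32 Retnlg and 23 Il1b UMIs and 9.16% mitochondrial UMIs, against 0.322% to 3.28% in the 15 of library 2. Retnlg-low cells were 0.825% of kept cells in library 1 (interval 0.534 to 1.21) and 0.627% in library 2 (interval 0.432 to 0.879), and those intervals overlap.

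The promoters of 4 genes are shown because these genes set the kinds apart or carry the highest cytokine levels. Each is the 200 bases before the transcript start on the gene's own strand, from RefSeq on GRCm38.p6, with matches to 3 motifs in capitals. Il1b lies on chromosome 2 at 129364570 to 129371139, Cxcl2 on chromosome 5 at 90903871 to 90905938, Siglecf on chromosome 7 at 43351341 to 43359531 and Retnlg on chromosome 16 at 48872621 to 48874496, in GENCODE M21 on GRCm38. For Cxcl2 and Retnlg the RefSeq start differs from this one. The Cxcl2 window therefore runs into the GENCODE gene, and the Retnlg window ends short of it. Distances below are to the RefSeq start.
Il1b, chr2:129371140-129371339, minus strand: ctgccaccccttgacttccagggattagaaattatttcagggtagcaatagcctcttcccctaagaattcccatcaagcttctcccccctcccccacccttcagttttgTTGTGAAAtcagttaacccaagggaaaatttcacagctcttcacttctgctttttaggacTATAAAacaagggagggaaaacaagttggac
Cxcl2, chr5:90903699-90903898, plus strand: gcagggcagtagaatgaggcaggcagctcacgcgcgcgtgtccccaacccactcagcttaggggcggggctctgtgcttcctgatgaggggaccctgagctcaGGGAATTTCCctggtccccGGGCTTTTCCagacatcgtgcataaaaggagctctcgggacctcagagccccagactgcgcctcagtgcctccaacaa
Siglecf, chr7:43351141-43351340, plus strand: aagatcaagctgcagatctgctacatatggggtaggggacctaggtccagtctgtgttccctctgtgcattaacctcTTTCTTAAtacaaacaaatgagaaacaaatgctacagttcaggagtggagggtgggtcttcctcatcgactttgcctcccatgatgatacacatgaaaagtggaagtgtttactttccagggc
Retnlg, chr16:48872408-48872607, plus strand: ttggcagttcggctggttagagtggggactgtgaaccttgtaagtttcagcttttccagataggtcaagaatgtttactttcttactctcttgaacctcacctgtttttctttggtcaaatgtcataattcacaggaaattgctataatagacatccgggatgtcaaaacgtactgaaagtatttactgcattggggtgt
Searched on both strands were, for NF-kB, GGG and TTTCC with any 2 bases between them, which 1.18% of 32851 promoter windows of this length hold, TTNNGNAA for C/EBP factors (30%), TGANTCA for AP-1 (5.48%) and TATAAA for a TATA box (9.96%). Cxcl2 held 2 NF-kB matches, which begin 97 and 78 bases before the start. Il1b held a C/EBP match at 91 bases and a TATA match at 31 bases before the start. Siglecf held a C/EBP match at 123 bases, and Retnlg held none of the 4. Ccl3 and S100a8 were searched too and are not shown. Ccl3 held a C/EBP match at 100 bases, and S100a8 a C/EBP match at 117 bases and a TATA match at 30 bases. A match describes letters in this window only, and nothing here measured factor binding.

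Within library 2, which held both kinds, levels of the 33 Retnlg-low and 15 Retnlg-high cells were compared for 348 genes with at least 30 UMIs over both. Of these, 144 (41.4%) were at least 2-fold higher and 46 (13.2%) at least 2-fold lower in Retnlg-low cells, and the median log2 ratio of CPM + 1 was 0.75. With S100a8 and S100a9 left out of the totals the median was 0.31, with 98 genes higher and 64 lower, so that 60.5% of called genes were higher in place of 75.8%. Several late maturation genes were higher in Retnlg-high cells. Retnlg, which defines the kinds, was at 26235 CPM in these and at 431 CPM in Retnlg-low cells. Ifitm6, an interferon-induced membrane protein gene, was at 3949 CPM (interval 3290 to 4702) against 58.7 CPM (interval 12.1 to 172). Wfdc17, a protease inhibitor gene, was at 5767 against 313 CPM, Lrg1 at 2602 against 157 CPM, S100a6 at 13384 against 1722 CPM and Mmp8 at 1316 CPM against 0 UMIs. Adam8, a surface protease, was at 784 against 97.8 CPM, and Anxa1, which codes for the anti-inflammatory protein annexin A1, at 1003 against 137 CPM. Without Retnlg, which defines the kinds, 10 of 18 measured genes of the list of gelatinase granule and late cytosolic proteins were at least 2-fold lower in Retnlg-low cells and 0 higher, with a median log2 ratio of -1.32. Of 7 measured specific granule genes, 5 were lower and 0 higher, at a median of -1.56.

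NF-kB and survival genes were at higher levels in Retnlg-low cells. All 7 measured genes of the NF-kB target and feedback list were at least 2-fold higher in them, with a median log2 ratio of 2.71. Among them, Nfkbia, the inhibitor that NF-kB induces against itself, was at 1644 CPM (interval 1311 to 2035) against 251 CPM (interval 108 to 494), and Ptgs2, the inducible cyclooxygenase, at 626 CPM (interval 428 to 884) against 62.7 CPM (interval 7.59 to 226). Ccrl2, a receptor that binds the chemoattractant chemerin without signalling, was at 2935 CPM (interval 2484 to 3444) against 0 UMIs, where 3 UMIs would be 94.03 CPM. Against that floor, Ccrl2 was higher by at least 4.95 on the log2 scale, Gadd45b, a stress-induced growth arrest gene, by at least 3.68 and Ccl3 by at least 3.53. Apoe was higher by at least 4.46, Tmem14c and Ccl4 by at least 2.85 each and Gngt2 by at least 2.68. Socs3, a feedback inhibitor of cytokine signalling, was at 1057 CPM (interval 794 to 1379) against 31.3 CPM (interval 0.794 to 175). Of 6 measured survival and apoptosis genes 5 were higher and 0 lower, at a median of 2.77, with Bcl2a1b at 626 against 62.7 CPM. The Bcl2a1 genes are near-identical copies, so counts of a single copy are uncertain. Ribosomal protein genes were also higher in Retnlg-low cells, 23 of 26 by at least 2-fold and 0 lower, with a median of 2.18. Of 10 measured receptor genes 1 was higher and 4 were lower, at a median of 0.13, and of 4 transcription factors 0 were past 2-fold, at -0.02. Il1r2 was within 2-fold, at 1546 (interval 1224 to 1927) against 1505 CPM (interval 1109 to 1995).

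The study's nearest other neutrophils were cells rich in granule genes. As first written, that comparison set needed 10 UMIs of Ngp, Camp and Ltf together and held 463 cells. Of these, 270 had fewer than 10 UMIs of Ngp and Camp, and 217 had neither. Ltf is also transcribed in glands, but whether these cells came from glands was not tested. Over 10555 genes, the 95 members were then at least 2-fold higher in both libraries for 758 genes (7.18%) and lower for 1555 (14.7%). The set was replaced, after these values had been seen, by 193 granule-stage neutrophils with at least 10 UMIs of Ngp and Camp and no mixed barcodes (39 in library 1, 154 in library 2, median 4361 UMIs). The 74 neutrophil-type cells were 40% of both sets together in library 1 (interval 28.04 to 52.9) and 23.8% in library 2 (interval 18.1 to 30.2). These intervals overlap only between 28.04 and 30.2. Against this set, 606 of 2823 genes (21.5%) were at least 2-fold higher in both libraries in the neutrophil-type cells and 201 (7.12%) at least 2-fold lower, with a median log2 ratio of 0.64. Part of that median lies in the scale, because S100a8 and S100a9 were at 211159 and 176924 CPM in granule-stage cells and at 97372 and 88913 CPM in the neutrophil-type cells. With both left out of the totals the median was 0.24, and 317 genes were higher and 257 lower, so 55.2% of the called genes were higher in place of 75.1%. Both sets were chosen in part on Ngp and Camp, so the whole comparison is a description. Values below are on the full scale, and each list is read against its median over all genes.

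The receptors that neutrophils use to find and read a site were mostly at higher levels than at the granule stage. Of 26 measured receptor genes, 15 were at least 2-fold higher and 1 lower, at a median log2 ratio of 1.35. Cxcr2 and Trem1, used to set monocyte-type barcodes apart, were not left out of these counts. Cxcr2 was at 483 CPM (interval 371 to 620) over all neutrophil-type cells, at 417 CPM in library 1 and 352 CPM in library 2 among Retnlg-low cells and at 752 CPM in the Retnlg-high cells of library 2. In granule-stage cells it was at 159 CPM in library 1 and 158 CPM in library 2. Cxcr4, the chemokine receptor that holds neutrophils in marrow and calls aged ones back, was at 464 CPM (interval 283 to 716) and 372 CPM (interval 224 to 581) in Retnlg-low cells of the libraries 1 and 2, against 19.3 and 62.7 CPM. Trem1, an amplifier of inflammatory signals, was at 1113 and 1057 CPM in Retnlg-low cells against 433 and 267 CPM. Clec4n, the fungal receptor dectin-2, was at 533 and 470 CPM in Retnlg-low cells, at 0 UMIs in Retnlg-high cells of library 2 and at 0 and 1 UMIs in the granule-stage cells. Fpr2, a formyl peptide receptor, was the 1 gene of the list at least 2-fold lower, with a log2 ratio of -1.36.

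The interleukin-1 system was represented by agonists, inhibitors and the inflammasome sensor. Il1a, the second agonist, was at 1066 CPM (interval 781 to 1422) in Retnlg-low cells of library 1, at 450 CPM (interval 285 to 675) in those of library 2 and at 62.7 CPM (interval 7.59 to 226) in the Retnlg-high cells, against 0 and 7.09 CPM in granule-stage cells. Il1rn, the receptor antagonist, was at 371 and 352 CPM in Retnlg-low cells against 43.3 and 50.8 CPM. Il1r2, the decoy receptor, was at 1669 and 1546 CPM in Retnlg-low cells against 679 and 410 CPM. Nlrp3, the inflammasome sensor, was at 278 and 294 CPM against 19.3 and 16.6 CPM. Inhibitors and agonists of interleukin-1 were thus both at higher levels than in granule-stage cells in both libraries. Il1r1, the signalling receptor, had 3 UMIs in 74 cells, and Il18 had none. Of 11 measured genes of this list, Il1b left out, 5 were at least 2-fold higher and 1 lower, at a median of 1.27.

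Of 9 measured cytokine and chemokine genes, 8 were at least 2-fold higher and 0 lower, with a median of 2.61. Cxcl2 was at 5031 CPM (interval 4384 to 5746) in Retnlg-low cells of library 1, at 8630 CPM (interval 7843 to 9474) in those of library 2 and at 9152 CPM in Retnlg-high cells. It was at 2181 and 1228 CPM in granule-stage cells, and it was among the genes that varied most from cell to cell. Ccl3 was at 1206 and 1096 CPM in Retnlg-low cells against 19.3 and 15.4 CPM, and Tnf at 440 and 274 CPM against 77.0 and 74.5 CPM. Ccl4 was at 881 and 685 CPM in Retnlg-low cells against 4.81 and 10.6 CPM, and 69.9% of its UMIs in the neutrophil-type cells lay in just 3 of them. Ccl2, a monocyte chemokine, came from a single cell.

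Genes induced by NF-kB had 11 of 18 measured members at least 2-fold higher and 0 lower, at a median of 1.80. Ccrl2 was at 2527 and 2935 CPM in Retnlg-low cells against 38.5 and 34.3 CPM in granule-stage cells. Survival and apoptosis genes had 9 of 11 higher and 0 lower, at a median of 2.68. Mcl1, the protein that neutrophils depend on to survive, was at 3037 and 2994 CPM in Retnlg-low cells, 1473 CPM in Retnlg-high cells and 746 and 669 CPM in granule-stage cells. Bax, which promotes cell death, was higher too, with a log2 ratio of 3.04, so the list holds genes of both directions. Immediate early and stress genes, which tissue dissociation can induce, had 11 of 21 higher and 0 lower, at a median of 1.42. Junb was at 3176 and 3248 CPM in Retnlg-low cells against 886 and 679 CPM. The part of dissociation in these levels was not tested.

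Genes listed for neutrophils resident in tissues or tumours had 12 of 17 measured members at least 2-fold higher and 0 lower, at a median of 1.54. Siglecf was at 603 CPM (interval 394 to 883) in Retnlg-low cells of library 1 and at 352 CPM (interval 209 to 557) in those of library 2, with 0 UMIs in Retnlg-high cells. Granule-stage cells had 1 Siglecf UMI in 193 cells, and monocytes, C1q-positive macrophages and Cyp2g1-high cells had none. Ltc4s, the leukotriene C4 synthase, was at 626 and 646 CPM in Retnlg-low cells and at 0 and 8.28 CPM in granule-stage cells. Itgax, the integrin chain CD11c, was at 255 and 313 CPM in Retnlg-low cells and at 0 UMIs in granule-stage cells, and over all neutrophil-type cells higher by at least 5.93 on the log2 scale. The adaptor gene Scimp was higher by at least 6.15. Among the genes named for the largest ratios were also Igfbp6, an inhibitor of insulin-like growth factor 2, at 904 and 548 CPM in Retnlg-low cells against 0 and 3.55 CPM, and Rgs10, with a log2 ratio of 6.14. Rgs1, a brake on G protein signalling, was at 1646 CPM in Retnlg-low cells of library 1 and 352 CPM in those of library 2, and 3 cells held 60.7% of its UMIs. Apoe was at 1808 and 2094 CPM in Retnlg-low cells against 24.1 and 26.01 CPM, and at 58792 CPM in C1q-positive macrophages. The part of macrophage RNA in the Apoe level was not tested.

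**Figure D3:**
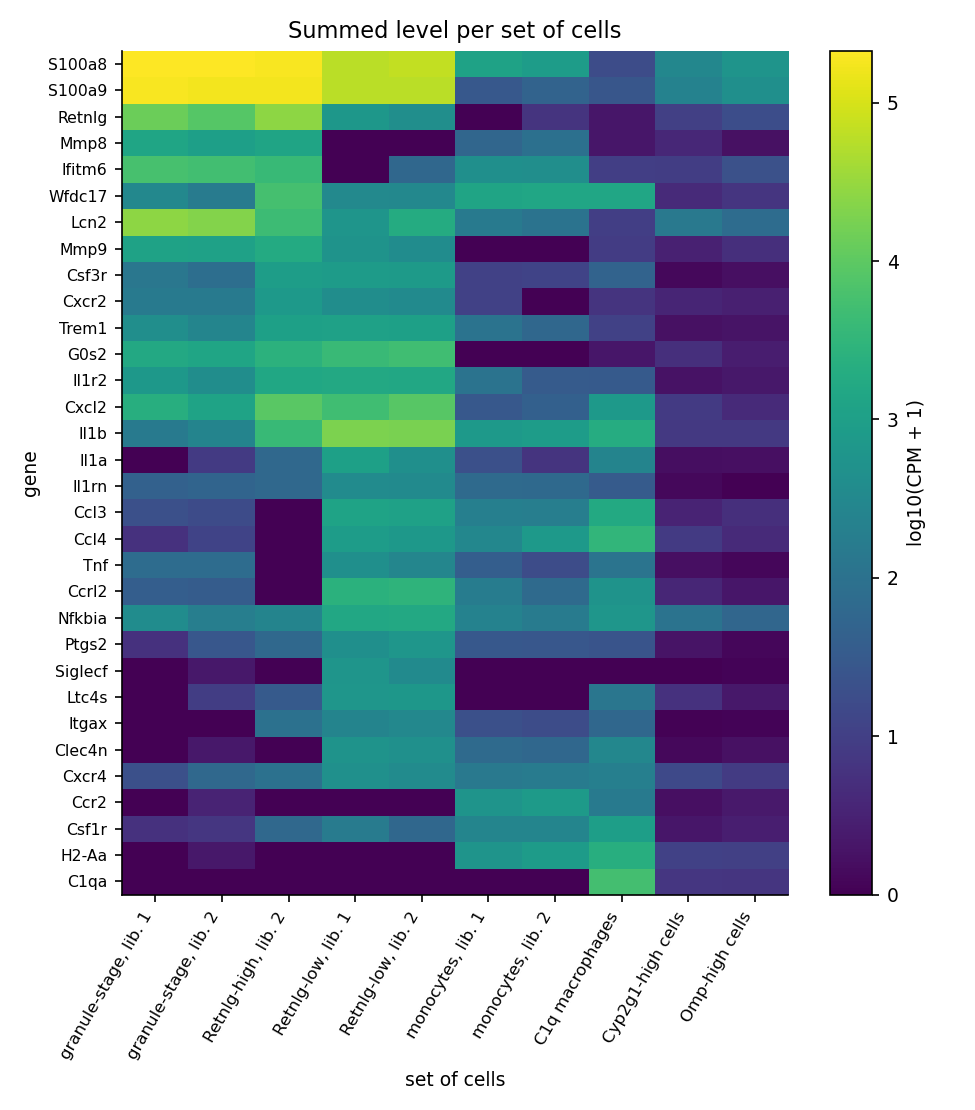
Colour gives the summed level of 32 genes as log10 of CPM + 1 in 10 sets of cells; rows are genes and columns are sets, with library 1 and library 2 apart for neutrophils and monocytes. Retnlg-low cells combine Il1b, Ccrl2, Ccl3 and Siglecf with low Retnlg and Mmp8, while Retnlg-high cells share Retnlg, Mmp8 and Ifitm6 with granule-stage cells. Il1b belongs to the rule and Retnlg defines the kinds, so their part in this pattern was set by the choice of cells.

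Granule proteins, cell cycle genes and the catalytic oxidase subunit were on the low side. Of 17 specific granule genes, the 3 of the rule left out, 12 were at least 2-fold lower and 0 higher, at a median of -2.51 (-2.36 with genes at 0 set to 3 UMIs). Both sets were chosen on genes of this same granule, so these lower levels are no separate check of the stage. Lcn2, which binds bacterial siderophores, was at 603 and 1859 CPM in Retnlg-low cells against 25852 and 21405 CPM. Chil3, a chitinase-like protein, had 2 UMIs in 74 cells against 2441 and 2939 CPM. Fcnb, a ficolin of the specific granule, was lower by at least 2.97 and Orm1, an acute phase protein, by at least 2.24 on the log2 scale. Serpinb1a, an inhibitor of neutrophil proteases, had 1 UMI in 74 cells against 520 and 403 CPM. Cybb, the catalytic subunit of the NADPH oxidase, was at 23.2 CPM (interval 0.587 to 129) and 78.3 CPM (interval 21.3 to 200) in Retnlg-low cells against 881 and 1192 CPM, and was the 1 of 6 oxidase genes past 2-fold. The other oxidase genes stayed near the granule stage, with Ncf1 at 603 and 567 CPM in Retnlg-low cells against 419 and 430 CPM. The median of the oxidase list was 0.18, and it turned to -0.24 without S100a8 and S100a9 in the totals.

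Cell cycle genes had 13 of 17 members at least 2-fold lower and 0 higher, at a median of -5.01, or -1.51 with genes at 0 set to 3 UMIs. Ube2c, Pclaf and Birc5 were at 0 UMIs in the neutrophil-type cells and lower by at least 2.89, 2.75 and 2.35 on the log2 scale, and Stmn1 had 1 UMI. Haemoglobin genes were also among the largest ratios, with Hba-a1 lower by at least 5.13 and Hba-a2 by at least 4.93, and Hbb-bs and Hbb-bt at 3 and 1 UMIs. A single granule-stage cell held 4261 of the 4287 UMIs of these 4 genes in the set. Without it Hba-a1 had 5, Hba-a2 4, Hbb-bs 12 and Hbb-bt 5 UMIs, too few to be compared, and 594 genes were higher and 195 lower. The paired copies of these genes are near-identical. Genes of late maturation were split, with 6 of 23 higher and 2 lower at a median of 0.53, under the 0.64 of all genes. Mmp9, Retnlg, G0s2 and Hdc, used to set barcodes apart, were not left out of these counts. G0s2, an inhibitor of fat breakdown, was at 4173 and 4951 CPM in Retnlg-low cells against 1632 and 1346 CPM. The stefins Stfa1, Stfa2 and Stfa2l1 and the related Gm5483 were the other higher genes beside Wfdc17, and reads may be split among these near-identical copies.

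Ribosomal protein genes had 1 of 33 higher and 0 lower at a median of 0.61, adhesion and migration genes 6 of 33 higher and 1 lower at 0.66, and interferon response genes 3 of 16 higher and 0 lower at 0.91. Transcription factors had 10 of 20 higher and 0 lower at 1.24, with Cebpb, which drives emergency granulopoiesis, at 4428 and 5753 CPM in Retnlg-low cells against 1964 and 1940 CPM. Eicosanoid genes had 4 of 8 higher and 1 lower at 1.28. Hypoxia and glycolysis genes had 3 of 19 higher and 4 lower at -0.24. Azurophil granule genes had 2 of 5 higher and 3 lower at -1.88, or -0.41 with genes at 0 set to 3 UMIs. Of 4 measured antigen presentation genes 1 was higher and 0 lower, at 0.54.

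**Figure D4:**
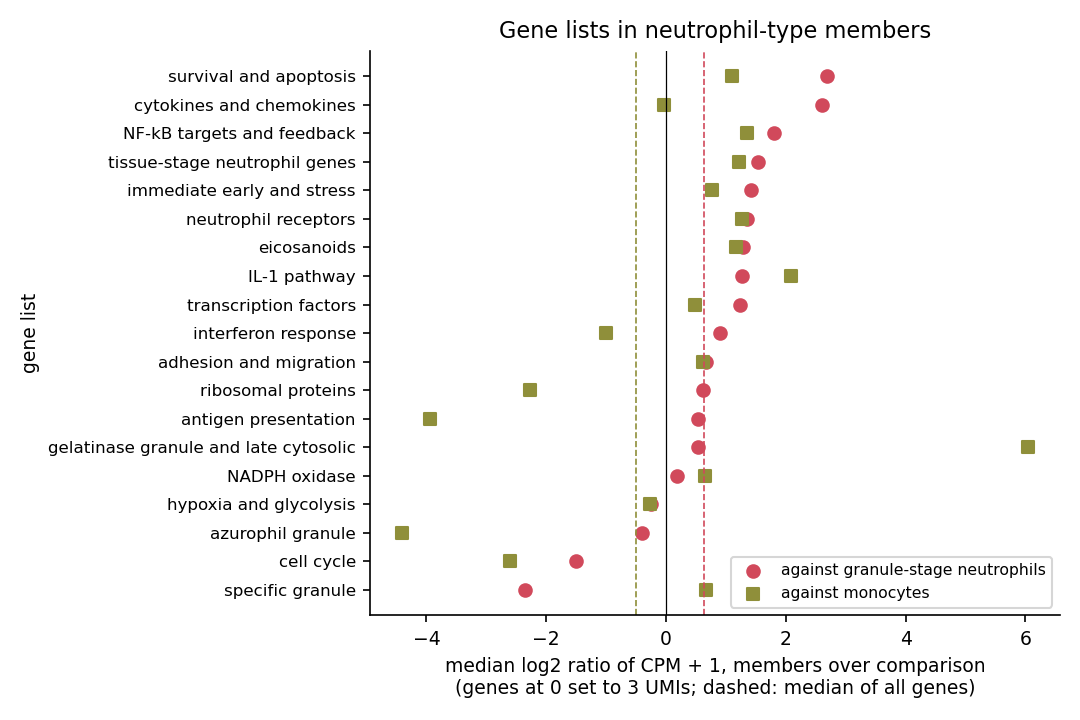
The x axis gives the median log2 ratio of CPM + 1 over the measured genes of each list, neutrophil-type cells over granule-stage neutrophils (circles) or monocytes (squares), with genes at 0 set to 3 UMIs; dashed lines mark the medians over all genes, 0.64 and -0.50. Survival, cytokine and NF-kB lists lie right of the granule-stage line, and specific granule and cell cycle lists lie left of it. Lists are drawn with Cxcr2, Trem1, Mmp9, Retnlg, G0s2 and Hdc kept, although these genes were used to set barcodes apart. The text leaves them out against monocytes, where the drawn late maturation median is 6.05 in place of 5.02.

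Monocytes, taken as cells with at least 2 UMIs of Ly6c2 and Ccr2 and at least 1 of Csf1r outside the rule, were the nearest other myeloid cells. As first written, all 95 members against monocytes gave 314 of 3001 genes at least 2-fold higher in both libraries (10.5%) and 452 lower (15.1%). Without mixed and monocyte-type barcodes, the 74 neutrophil-type cells were compared with 46 monocytes (15 and 31, median 3951 UMIs). Of 1977 genes, 205 (10.4%) were at least 2-fold higher in both libraries and 498 (25.2%) at least 2-fold lower, with a median log2 ratio of -0.50. Without S100a8 and S100a9 in the totals the median was -0.21, with 263 higher and 396 lower, so that 39.9% of called genes were higher in place of 29.2%.

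Without Mmp9, Retnlg, G0s2 and Hdc, which were used to set barcodes apart, 10 of 15 late maturation genes were at least 2-fold higher than in monocytes and 0 lower, at a median of 6.40 (5.02 with genes at 0 set to 3 UMIs). Against 0 UMIs in monocytes, G0s2 was higher by at least 8.51 on the log2 scale, Stfa1 by at least 7.67, Gm5483 by at least 7.06, BC100530 by at least 6.84 and Mmp9, the gelatinase, by at least 6.15. Of these, G0s2 and Mmp9 are neutrophil genes used in the choice of cells. Stfa2l1 was higher by at least 6.05, the skin protease gene Asprv1 by at least 5.49, Ltc4s by at least 5.40, Stfa2 by at least 5.02 and Siglecf by at least 4.93. S100a9 was at 28.8 and 48.2 CPM in monocytes of the libraries 1 and 2 and at 60531 and 59312 CPM in Retnlg-low cells. Without Cxcr2 and Trem1, used in the same choice, receptor genes had 10 of 22 higher and 1 lower at a median of 1.21, and interleukin-1 genes 4 of 6 higher and 1 lower at 2.09.

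Lower than in monocytes were antigen presentation genes, 7 of 10 and 0 higher, at a median of -4.78 (-3.94 with genes at 0 set to 3 UMIs). H2-Eb1, H2-Ab1 and H2-Aa, the class II chains, were at 0 UMIs in the neutrophil-type cells and lower by at least 5.38, 5.19 and 4.92. H2-Aa UMIs came from 3 of 15 and 7 of 31 monocytes. Ms4a6c was lower by at least 5.20, the chemokine receptor Ccr2 by at least 4.87, Ccl5 by at least 4.82 and the transglutaminase F13a1 by at least 4.29. Ccr2 defines the monocytes and Ms4a6c, Ccr2 and F13a1 set the monocyte-type barcodes apart, so these 3 ratios are a description. Elane, Mpo and Ctsg, azurophil granule genes made by early progenitors, were lower by at least 4.71, 4.48 and 4.41, and Elane UMIs came from 4 monocytes in each library. Cell cycle genes were lower for 15 of 15 at -6.12 (-2.61 with genes at 0 set to 3 UMIs), with Ube2c and Pclaf among the largest ratios. All 33 measured ribosomal protein genes were at least 2-fold lower, at a median of -2.27 and -1.98 without S100a8 and S100a9. Rpl13 was at 1298 and 861 CPM in Retnlg-low cells, 219 CPM in Retnlg-high cells and 4564 and 6071 CPM in monocytes. Cytokine and chemokine genes were split, 4 of 11 higher and 3 lower at -0.04, and this median was 0.26 without S100a8 and S100a9. The median of hypoxia and glycolysis genes was -0.27, and 0.03 on that scale.

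Library 2 was then set against library 1. As first written, library 2 over library 1 in all members gave 222 of 1334 genes at least 2-fold higher (16.6%) and 110 lower (8.25%). In the 74 neutrophil-type cells, 39 of 582 genes (6.7%) were at least 2-fold higher in library 2 and 44 (7.56%) lower. Without S100a8 and S100a9 in the totals these were 46 and 27, so that library 2 was higher for 63.0% of called genes in place of 47.0%, and the median log2 ratio was -0.07 in place of -0.23. In the 58 Retnlg-low cells, 12 of 480 genes (2.5%) were higher and 9 (1.88%) lower, and 12 and 10 of 483 with the monocyte-type barcode of library 1 kept. Since the Retnlg-high cells lie almost wholly in library 2, the first counts and the share of kinds cannot be told apart.

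Several of the largest ratios toward library 2 in neutrophil-type cells belonged to genes that were higher in the Retnlg-high kind. Retnlg was at 1326 CPM in library 1 and 10348 CPM in library 2, a ratio of 7.81 (interval 6.00 to 10.3), but in Retnlg-low cells the ratio was 0.663 (interval 0.362 to 1.20). Ifitm6 was at 88.4 and 1554 CPM, with a ratio of 17.6 (interval 6.70 to 65.5), and Lrg1 at 133 and 1096 CPM, with a ratio of 8.27 (interval 3.66 to 23.1). Mmp8 had a ratio of 11.4 (interval 2.98 to 97.6), Ifi27l2a, with 69.4% of its UMIs in 3 cells, of 6.00 (interval 1.88 to 30.6) and S100a6 of 4.76 (interval 3.63 to 6.34). Ifitm3, an antiviral membrane protein gene, was higher in library 2 with and without that kind. Its ratio was 9.36 (interval 4.16 to 26.1) over all and 12.1 (interval 3.87 to 61.0) in Retnlg-low cells, where 2 of 25 cells in library 1 and 9 of 33 in library 2 had a UMI. In Retnlg-low cells the antiprotease Slpi had 1 UMI in library 1 and 34 in library 2, the latter in 5 cells, a ratio of 28.7 with an interval of 4.81 to 1166. Lcn2 had a ratio of 3.08 (interval 1.98 to 4.96) there, Cd47, a signal against phagocytosis, of 3.15 (interval 1.59 to 6.79) and Clec4e, a receptor for mycobacterial glycolipid, of 2.53 (interval 1.48 to 4.51). The intervals of Actr2 and Csrnp1, with ratios of 2.11 and 2.07, include 1.

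Toward library 1, Rgs1 had a ratio of 0.138 (interval 0.0775 to 0.234) over all neutrophil-type cells and 0.214 (interval 0.120 to 0.363) in Retnlg-low cells. Atf3, a stress-induced transcription factor, had 0.272 (interval 0.119 to 0.570) in Retnlg-low cells, and the cathepsin inhibitor Cstb 0.237 (interval 0.0997 to 0.509). In all neutrophil-type cells 3 cells held 41.5% of the Atf3 UMIs, 48.9% of those of Cstb and 51.3% of those of Ctss. Il1a had 0.422 (interval 0.244 to 0.711), the tetraspanin Cd9 the same ratio, the lysosomal protease Ctss 0.473 (interval 0.227 to 0.945) and Btf3 0.480 (interval 0.281 to 0.801). Over all neutrophil-type cells Efhd2 had 0.344 (interval 0.152 to 0.747). All 12 measured genes of the tissue-stage list lay below 0 in Retnlg-low cells, at a median log2 ratio of -0.36 against -0.02 for all genes, and 2 of them were past 2-fold. Siglecf was one of those within 2-fold, with a ratio of 0.584 (interval 0.302 to 1.11). In Retnlg-low cells Cxcr2, Il1r2 and Ccrl2 differed by less than 2-fold, with ratios of 0.844, 0.926 and 1.16. Cxcl2 was at a ratio of 1.72 (interval 1.45 to 2.03).

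**Figure D5:**
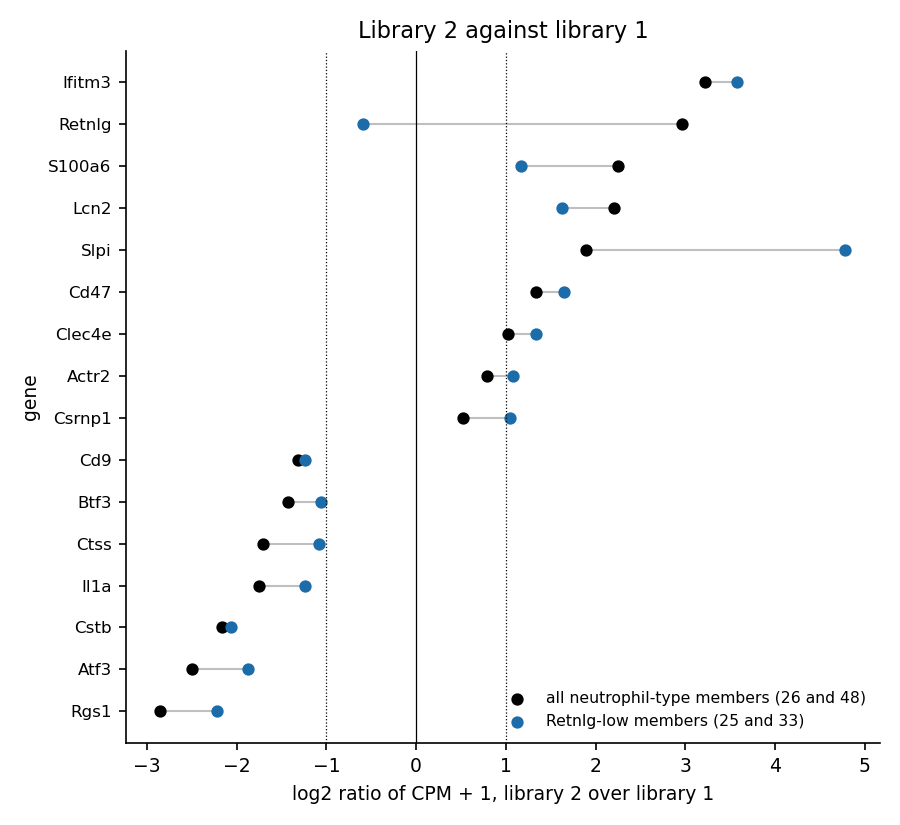
The x axis gives the log2 ratio of CPM + 1, library 2 over library 1, for 16 genes in all neutrophil-type cells (black) and in Retnlg-low cells (blue); dotted lines mark 2-fold. Retnlg moves from 2.96 to -0.59 without the Retnlg-high cells, while Ifitm3, Cstb, Atf3 and Rgs1 stay past 2-fold on their side.

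Calprotectin genes and Retnlg varied most among the single cells. After thinning each of the 74 cells to 1000 UMIs, 272 genes had a mean of at least 0.5 UMIs, and the median of their variance over mean was 1.34. S100a8 had 61.1, S100a9 50.7 and Retnlg 21.5, and Wfdc17, Fth1, Lyz2, Cxcl2, Stfa1, S100a6 and Ccl4 followed with 18.4 to 10.2. Fth1 encodes the ferritin heavy chain and Lyz2 lysozyme. Xist, an RNA of the inactive X chromosome, had a UMI in 43.2% of these thinned cells. It is transcribed in female cells, while the mouse is given as male, and the sex of the cells was not tested. Within the 58 Retnlg-low cells, summed S100a8 and S100a9 had a Spearman correlation of -0.69 with the summed ribosomal protein genes. NF-kB genes correlated with survival and apoptosis genes at 0.63, where Gadd45b is in both lists, and with cytokine and chemokine genes at 0.59. Each correlation is over 58 cells of 1 mouse in which all sums share the same 1000 UMIs, and is a description.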

How the data were processed

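Cells of the occluded and the open side of the olfactory epithelium of 1 mouse were captured with a target of 10000 each, per the labels. The deposited table holds raw UMI counts, made with Cell Ranger 3.0.2 on mm10 per the submitters' processing notes, with 31053 genes and 12491 barcodes of 2 libraries in 1 aggregated matrix. Whether the aggregation evened out depth is not stated there.

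The members and lists were chosen with earlier results of these data known. UMIs were summed over the cells of a set and given as CPM with exact Poisson 95% intervals. Shares have Clopper-Pearson intervals. Ratios are log2 of CPM + 1 for genes with at least 30 UMIs over both sets, and a gene was called at 2-fold or more, in both libraries where a set of cells was compared. Library ratios have exact conditional binomial intervals. A group at 0 was set to 3 UMIs, summed over the group, for bounds. Cells were thinned to 1000 UMIs without replacement for shares and variation. No doublet caller was run, and barcodes with 10 or more UMIs of other classes' markers were set apart. Genes at 3′ ends are not compared with each other by level.

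Genes were named where they belong to the rule, the markers or a fixed list, were among the 10 highest or most variable, or had the 12 (cell sets) or 8 (libraries, kinds) largest ratios in a direction with at least 100 CPM in the higher set, and a few genes that this rule names are not reported here. The computation was tested on simulated sums with counting error only and with changes well above 2-fold. That test does not cover calls near 2-fold or the variation between cells. Figures were drawn with matplotlib 3.10.9, and tables were made with pandas 2.3.3, numpy 2.4.6 and scipy 1.17.1 under Python 3.11.15. Of the gene identifiers, 31011 matched GENCODE M21, which gave the coordinates. Alternatives were other cell filters, rule bounds, pseudocounts, comparison sets and thinning, and the closing section gives their effect.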

Additional observations from a re-analysis of the deposited data

Results flagged for a closer look

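Outside the cell filter, 35 further barcodes met the gene rule, 8 in library 1 and 27 in library 2. They had a median of 1103 UMIs and 498 genes. Of these, 16 had under 1000 UMIs, 19 under 500 genes and 14 over 10% mitochondrial UMIs. At least 3 UMIs of the neutrophil genes, and more of these than of the monocyte genes, were found in 28 that were not mixed. They enter no comparison.

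Some genes had opposite directions in the libraries, and the difference between the libraries was not tested. Against granule-stage neutrophils, Prok2, a chemokine-like peptide, had a log2 ratio of at most -1.33 in library 1, where the neutrophil-type cells had none of its UMIs and were set to 3, and of 1.74 in library 2. Slpi had -1.22 in library 1 and 1.05 in library 2. Against monocytes, Ifitm6 had -2.31 in library 1 and 1.88 in library 2, and the integrin chain Itgal -2.33, from 1 UMI in the neutrophil-type cells, and 1.64. Of the neutrophil-type cells, 1 of 26 in library 1 and 15 of 48 in library 2 were Retnlg-high.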

How the results depend on the processing

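The share of all 95 members among kept cells depended on depth and on Csf3r. It was 0.923% in library 1 and 1.27% in library 2, and 0.0372% and 0.524% with at least 2500 UMIs, 1.74% and 2.49% with at most 5% mitochondrial UMIs and 0.297% and 0.380% with at least 2 Csf3r UMIs. Among members plus the granule-stage set as first written it was 18.3% and 16.5%, 32.9% and 23.8% with at least 50 granule UMIs, and 41.8% and 30.3% with the Ngp and Camp set. The Retnlg-high share of library 2, 31.3%, was 100% with at least 2500 UMIs and 64.3% with at least 2 Csf3r UMIs. Cxcr2 in all members, 319 CPM, was 221 with at least 2500 UMIs, 539 with at least 2 Csf3r UMIs and 483 in neutrophil-type cells.

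Genes past 2-fold as first written were 21.9% against the granule-stage set, 37.1% with at least 2 Csf3r UMIs and 42.4% without members that had 3 or more UMIs of other classes. Against monocytes they were 25.5%, and 15.9% with at least 1 Il1b UMI. Between libraries they were 24.9%, 45.9% with at least 2500 UMIs, 64.0% with no UMI minimum and 14.3% in neutrophil-type cells. From that 14.3%, neutrophil-type cells gave 34.1% with at least 2 Csf3r UMIs, 58.9% with no UMI minimum, 8.92% with at least 100 UMIs and 4.38% in Retnlg-low cells. The neutrophil-type comparisons with granule-stage cells and monocytes stayed between 20.3% and 36.4% and between 26.4% and 42.8% of genes. Against the granule-stage cells, 606 genes were higher and 201 lower, 594 and 195 without the cell rich in haemoglobin, 603 and 200 with the library 1 monocyte-type barcode kept, 571 and 569 with mixed barcodes kept in that set, 331 and 294 with at least 2 Csf3r UMIs and 1670 and 1271 with no UMI minimum. Against monocytes, 205 were higher and 498 lower, 118 and 537 with at least 2 Csf3r UMIs and 905 and 2242 with no UMI minimum. Variance over mean of Retnlg was 21.5, and 47.2 unthinned.

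With at least 1 Il1b UMI, log2 ratios of all members turned positive for Birc5 (0.40), Pclaf (0.41) and Ube2c (0.97) against the granule-stage set as first written and for Ctsg (0.089) and Elane (0.35) against monocytes. With at least 2500 UMIs, which left 1 member in library 1, the library ratios turned to 7.77 for Ctss, 4.42 for Il1a, 6.11 for Rgs1, -0.59 for Lrg1 and -0.63 for Mmp8. In Retnlg-low cells Retnlg had -0.59, and Mmp8 had 0 UMIs in both libraries, so its ratio of 0.0 compares no counts. The cause of the other turns was not tested. No neutrophil-type cell of library 1 had 2500 UMIs, so that alternative gives no value there. No paired analysis was possible because each side has 1 library. The 1660 UMIs of a median neutrophil-type cell limit what can be seen of genes with few UMIs.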
